A study of Homo sapiens with 7 samples.

Results

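The proteasome subunit genes were followed in H1 human embryonic stem cells given the kinase inhibitor XMD892. Members are all genes of the deposited table whose symbol starts with PSMA, PSMB, PSMC, PSMD, PSME, PSMF or PSMG and a number, with antisense genes and pseudogenes left out. Of 55 matching symbols, 4 antisense genes and 4 pseudogenes were set aside, which left 47 members of 19775 genes. One of the 47, PSMC3IP, only resembles a proteasome gene by its name: it encodes a partner of the meiotic recombinases and no subunit. The other 46 comprised 7 subunits of the 20S alpha ring, 7 of the 20S beta ring, 3 inducible beta subunits, 6 ATPases and 11 non-ATPase subunits of the 19S particle, 3 chaperones that help assemble the 19S base, 4 that help assemble the 20S core, and 5 activators or inhibitors. PSMA8 and PSMB11 were not analysed here.

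H1 is an established human embryonic stem cell line, here wild type and kept in E8, a defined medium with FGF2, TGFβ and insulin. The groups were 2 libraries of cells in E8 medium alone for 48 h, 1 library after 12 h of XMD892 at 1 µM, 2 after 24 h and 2 after 48 h, with all treated cells in the same medium. The study's title ties the inhibitor to ERK5, a mitogen-activated kinase, and its design asks how gene expression changes over these times. Controls were harvested at 48 h only, so the 12 h and 24 h groups have no control of their own time, and the same control pair enters each comparison with E8. Every sample is the same cell line, and no label calls the replicates separate cultures, so each p-value reflects the spread among these libraries alone, which may be technical.

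The proteasome degrades proteins tagged with ubiquitin. Its 20S core is a barrel of stacked alpha and beta rings, in which 3 of the beta subunits, encoded by PSMB5, PSMB6 and PSMB7, cut the protein chain. The 19S particle caps the barrel, binds ubiquitin, unfolds the substrate with a ring of ATPases and feeds it inward. Interferon signalling and immune cells replace the cutting subunits by those of PSMB8, PSMB9 and PSMB10, giving the immunoproteasome, which is linked to peptide supply for MHC class I. When proteasome activity falls, the transcription factor NFE2L1 raises subunit genes together through antioxidant response elements. Embryonic stem cells are known for high proteasome activity.

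The regulatory motif through which NFE2L1 is known to act is shown first, because it is the usual basis for describing these genes as a regulon. RefSeq gave a promoter for 41 of the 47 members on GRCh38.p14. Only the first window listed for each gene was searched, and 10 further windows of members were not. The 250 bases before the start were searched on both strands for TGACNNNGC, the core of the antioxidant response element, where N is any base. The core was found in 11 of the 41 (26.8%), compared with 11% of 27305 promoters of the same length. A stretch of 37 bases around the match is printed 5′ to 3′ on the strand of the gene, with the motif or its reverse complement in capitals. The 6 promoters shown are those whose match lies outside annotated exons and outside the gene's own span, leaving out PSME4, whose match lies in an exon of the neighbouring gene ACYP2. Among the 6, only PSMD9 was called higher in the main test, at 24 h, and no other was called.
PSMB3, chr17:38752623-38752659, plus strand: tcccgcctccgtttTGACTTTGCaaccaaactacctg
PSMD3, chr17:39980756-39980792, plus strand: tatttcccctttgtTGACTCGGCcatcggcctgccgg
PSMD12, chr17:67366720-67366756, minus strand: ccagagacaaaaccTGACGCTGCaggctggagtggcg
PSMD5, chr9:120843034-120843070, minus strand: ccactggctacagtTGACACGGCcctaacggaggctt
PSME1, chr14:24136094-24136130, plus strand: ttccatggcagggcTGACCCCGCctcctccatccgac
PSMD9, first match, chr12:121888627-121888663, plus strand: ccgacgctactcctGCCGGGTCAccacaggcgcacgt
PSMD9, second match, chr12:121888674-121888710, plus strand: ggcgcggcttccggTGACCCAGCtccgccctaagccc

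Other short motifs were also present in these windows. The CCAAT box, spelled CCAAT, was in 18 of 41 member promoters (43.9%) and in 33% of all. The GC box, spelled GGCGGG, was in 28 (68.3%) and in 42.3% of all. The core of the interferon response element, GAAA and again GAAA after any 2 bases, was in 5 (12.2%, those of PSMA4, PSMB4, PSMB10, PSME2 and PSMG4) and in 3.07% of all. Matches of different motifs may share bases and were counted for each motif on both strands. A match is a description of the letters and no evidence of binding.

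The libraries held 18528689 to 24148186 reads over the listed genes, and members took between 0.505% and 0.584% of them. All 11 stem cell markers examined were present, with summed normalised read counts from 1.80e+05 to 2.15e+05. Of 4 endoderm markers 1 was listed, at no more than 13.97. The 3 listed of 5 mesoderm markers summed to 275.1 and 299.5 in E8 and to between 54.75 and 101 in the treated libraries. The 2 listed of 3 neuroectoderm markers summed to 6564 and 10009 in E8, 18826 at 12 h, between 11869 and 13649 at 24 h and between 8081 and 8981 at 48 h. Almost all of that sum was NES, at 6531 to 18781, with SOX1 at 33.2 to 111. The 2 listed of 5 haematopoietic markers, CD74 and HLA-DRA, summed to 171.1 and 193.3 in E8 and to between 120.2 and 217.1 in the treated libraries, and the 3 listed of 5 fibroblast markers to between 6835 and 8568 in all. The largest fibroblast marker was THY1, at 3970 to 6093. The part of all these markers in the results below was not tested. In such bulk RNA, fewer cells of a kind and less RNA per cell cannot be told apart. The 2 control libraries differed from each other along the GC content of transcripts: over 16023 genes, which are not independent replicates, the Spearman correlation between their log2 difference and GC content was 0.653, compared with -0.01 within the 24 h pair and -0.22 within the 48 h pair.

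Proteasome genes carried this difference between the controls. All 20 tested members with a GC content of 50% or more were higher in E8 replicate 2 than in replicate 1, by a median of 0.36 on the log2 scale. Among the 26 with a lower GC content, 9 were higher and the median difference was -0.04. The Spearman correlation over the 46 tested members, which share the same libraries, was 0.69 and is given as a description. E8 replicate 1 was the lowest of the 7 libraries for 26 of the 46. The median absolute difference between replicates over members was 0.22 in E8, 0.10 after 24 h and 0.12 after 48 h, so the comparisons with E8 are given below also without each control library.

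**Figure D1:**
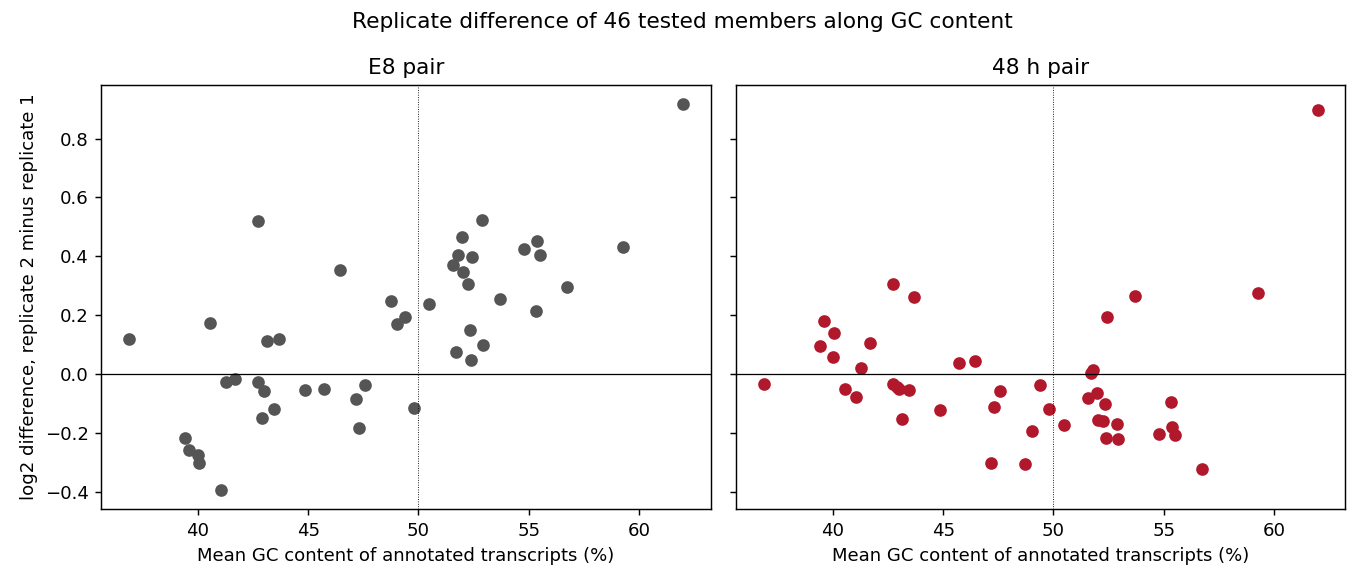
Log2 difference between replicate 2 and replicate 1 for each of the 46 tested members (points) against the GC content of its annotated transcripts in percent, for the E8 pair (left) and the 48 h pair (right). The dotted line marks 50%, above which all 20 members were higher in E8 replicate 2.

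Transcripts of the proteasome as a whole stayed close to the control level. Summed over all 47 members, the normalised read count was 98428 and 106260 in E8, 116180 at 12 h, 109310 with 109300 at 24 h, and 114770 with 106620 at 48 h. All treated libraries therefore lay above both E8 libraries, by ratios of group means of 1.14 at 12 h, 1.07 at 24 h and 1.08 at 48 h. The constitutive 20S core had ratios of 1.04, 1.07 and 1.12 at these times, and the constitutive 19S particle 1.20, 1.09 and 1.09. The sum of the 3 inducible beta subunits went the other way, with ratios of 0.538, 0.507 and 0.526. Most of that sum was PSMB8, with a mean of 120.7 of 147.7 in E8. The other inducible subunits had few reads: PSMB10 had ratios of 0.178, 0.670 and 0.451, while PSMB9 had 1.08, 0.666 and 1.40.

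Gene by gene, limma tested the 46 members that reached a mean of 10 normalised reads, PSMB9 being left out at 9.17. At 48 h against E8, no member rose, against 5.08% of all 16351 tested genes, and 1 fell, PSMB8, against 6.45%. At 24 h 2 rose, PSMG4 and PSMD9, against 8.66% of all genes, and 1 fell, PSMB8, against 7.56%. At 12 h 1 rose, PSMC1, against 2.56%, and none fell, against 4.89%. The share of members called was thus near or under that of all genes in each direction. With an unadjusted p under 0.05, limma had 4 members higher at 48 h and 2 lower at 12 h, and in both of those directions edgeR and DESeq2 called 0. Between 24 h and 48 h no member passed limma's test in either direction (0.349% of all genes higher and 0.856% lower), and edgeR and DESeq2 also called 0. With an unadjusted p under 0.05, limma and edgeR each found 1 member in that comparison, which for limma was PSMD9, and DESeq2 found 0.

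The median log2 fold change over tested members was 0.12 at 48 h, 0.10 at 24 h and 0.19 at 12 h, where the median over all tested genes was 0.02, 0.01 and 0.02. These values rest in part on 1 control library. Without E8 replicate 1 the members' medians were 0.05, 0.01 and 0.14, and without E8 replicate 2 they were 0.21, 0.17 and 0.25. The calls moved further: without E8 replicate 2, 10 members rose and 2 fell at 48 h, when 14.6% of all genes rose and 10.2% fell. At 24 h the same removal gave 12 that rose and 3 that fell (17.7% and 12.4% of all genes), and at 12 h 9 that rose (10.3% of all genes) and 0 that fell. Without E8 replicate 1, 0 members rose and 1 fell at 48 h, when 3.62% of all genes rose and 6.17% fell. At 24 h 1 rose and 1 fell (4.77% and 5.58% of all genes), and at 12 h 1 rose and 0 fell (4.21% and 7.25%).

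The intervals of the estimates bound how large an unseen change could be. The 95% interval of the fold change lay within 2-fold in either direction for 43 of 46 members at 48 h, 43 at 24 h and 41 at 12 h. It lay within 1.5-fold for 34, 31 and 19 of them. Both 48 h libraries lay above both E8 libraries for 18 members (27.3% of all genes did so) and below for 4 (25% of all genes). At 24 h the counts were 16 above (29.8% of all genes) and 5 below (28.5%).

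**Figure D2:**
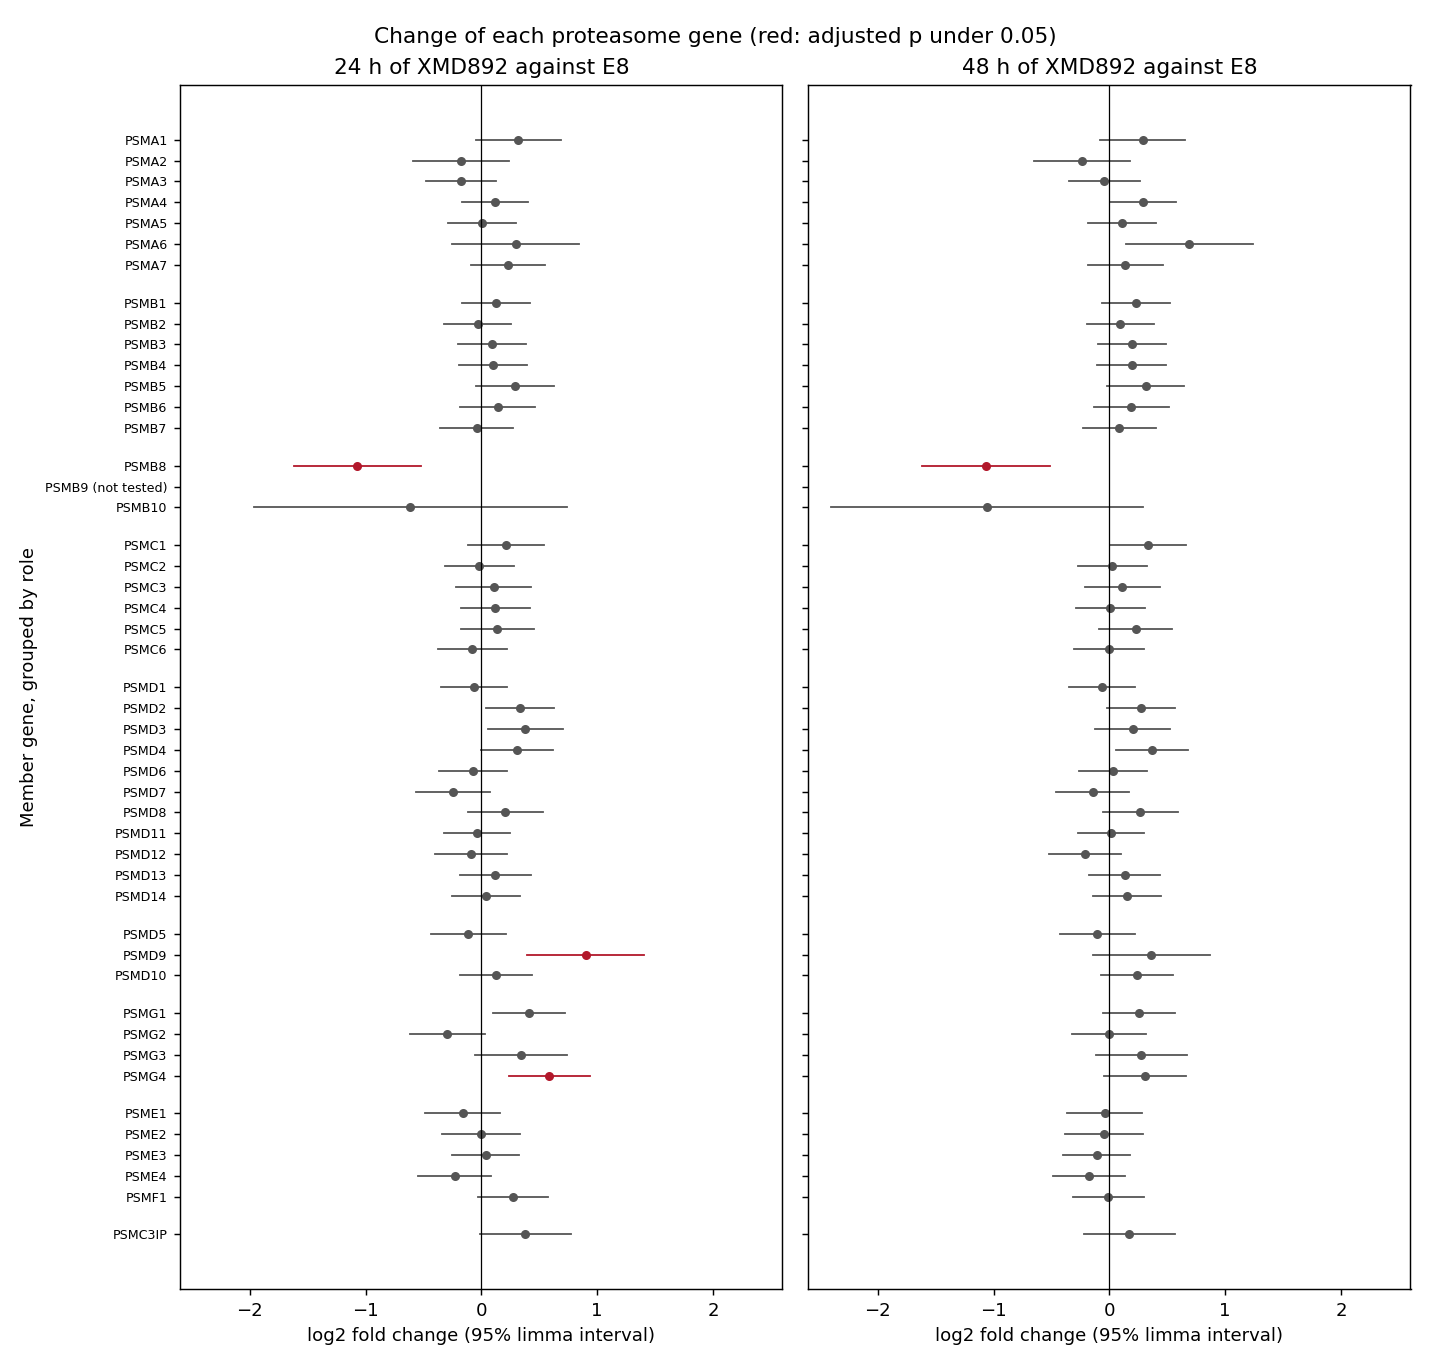
Log2 fold change of each member at 24 h (left) and 48 h (right) of XMD892 against E8, with the 95% interval from limma as a bar and members grouped by role. Red marks an adjusted p under 0.05, which PSMB8 reached at both times and PSMG4 and PSMD9 at 24 h; PSMB9 was not tested.

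Among the inducible catalytic subunits, PSMB8 was lower in every treated library. PSMB8 (chromosome 6, 32840717 to 32844703, minus strand, GRCh38) encodes the counterpart of PSMB5. Its normalised read count was 110 and 131 in E8, 66.6 at 12 h, 52.1 and 61.7 at 24 h, then 51.8 and 62.5 at 48 h. The groups did not overlap, with every treated library below both controls. The mean was 2.11-fold lower at 48 h (log2 fold change -1.07 ± 0.27 SE, n = 2 against 2, limma adjusted p = 0.011) and 2.12-fold lower at 24 h (-1.07 ± 0.27, adjusted p = 0.00894). At 12 h the single library gave -0.84 ± 0.32, which did not pass (adjusted p = 0.118).

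The 48 h call on PSMB8 was lost without 48 h replicate 1 (-0.93, limma adjusted p = 0.117), and the 24 h call without 24 h replicate 1 (-0.95, adjusted p = 0.0806). Leaving out either E8 library ended neither call. With the trend along GC content removed from each library the values were -1.12 at 48 h and -1.13 at 24 h, both past the threshold.

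PSMB8 stood far below its constitutive counterpart throughout. Per kilobase of transcript, PSMB8 reached 4.89% and 4.06% of the PSMB5 level in E8, 2.17% at 12 h, 1.54% and 1.92% at 24 h, then 1.46% and 1.98% at 48 h. The E8 values are the highest 2 of the 7. PSMB9, the counterpart of PSMB6, was near the limit of counting, at 8.73 and 9.09 in E8, 9.66 at 12 h, 6.25 and 5.61 at 24 h, then 13.0 and 11.9 at 48 h. It was lowest at 24 h and highest at 48 h, and it lay between 0.203% and 0.445% of PSMB6 per kilobase.

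PSMB10, the counterpart of PSMB7, had few reads and varied widely within groups. Its normalised read count was 12.2 and 24.0 in E8, 3.22 at 12 h, 17.7 and 6.55 at 24 h, then 5.40 and 10.9 at 48 h. The 24 h libraries overlapped the E8 libraries and the 48 h libraries did not. Its log2 fold changes of -1.06 ± 0.65 at 48 h and -2.11 ± 0.80 at 12 h did not pass (limma adjusted p = 0.315 and 0.11). In GENCODE 29, 45.3% of the PSMB10 transcript lies in exons of AC040162.1 on the same strand, so reads could be shared with that gene.

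**Figure D3:**
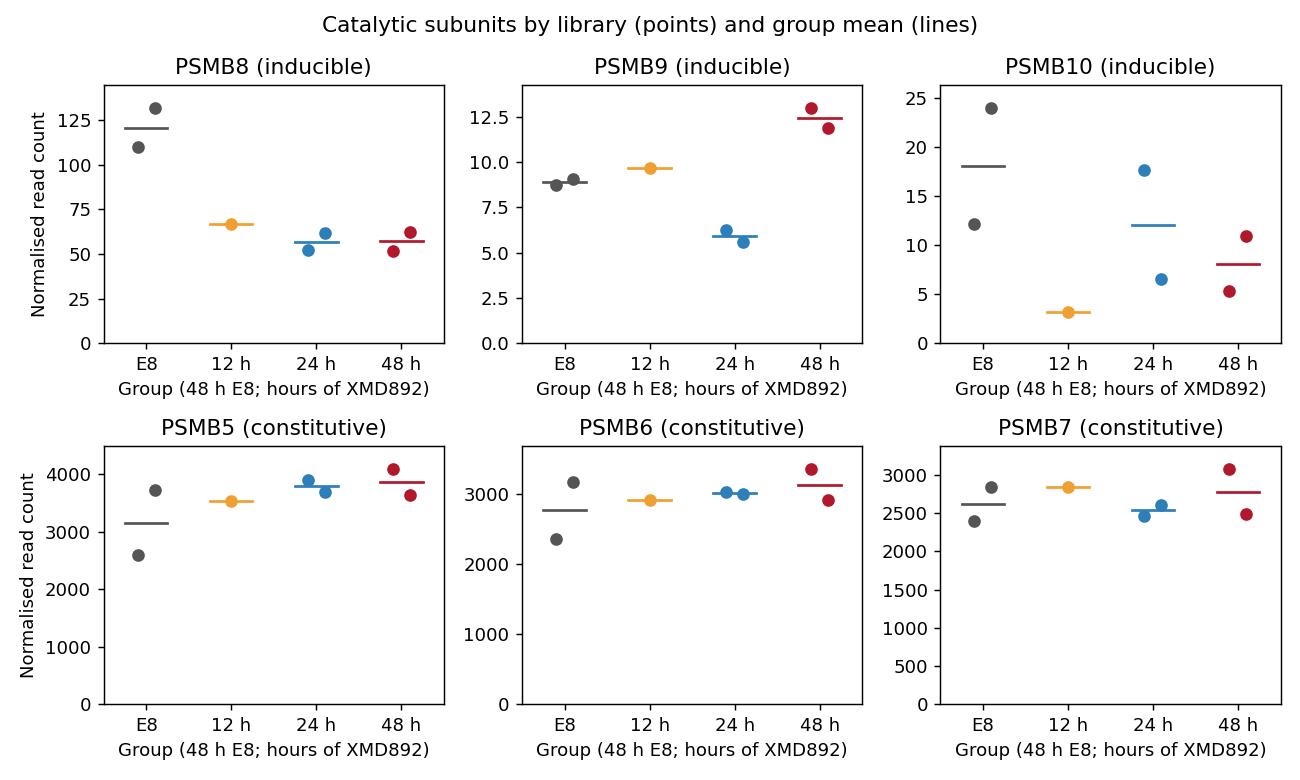
Normalised read count of the 3 inducible (top) and 3 constitutive (bottom) catalytic subunits in each library (points) with the mean of each group (lines), for E8 and 12, 24 and 48 h of XMD892; each panel has its own axis from 0. PSMB8 lies below both E8 libraries in all 5 treated libraries, while PSMB5, PSMB6 and PSMB7 overlap E8 at 24 h and 48 h.

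The promoter of PSMB8 is shown because this was the member that fell at both later times. The 250 bases before its RefSeq start, chr6:32844680-32844929 on GRCh38.p14, minus strand, contain 3 GC boxes in the orientation GGCGGG, printed in capitals. They hold no match to TGACNNNGC, CCAAT or the interferon response element core, which says only that these letters are absent from this window. Exons of the antisense gene PSMB8-AS1 cover part of the same stretch.
PSMB8, 250 bases before the start: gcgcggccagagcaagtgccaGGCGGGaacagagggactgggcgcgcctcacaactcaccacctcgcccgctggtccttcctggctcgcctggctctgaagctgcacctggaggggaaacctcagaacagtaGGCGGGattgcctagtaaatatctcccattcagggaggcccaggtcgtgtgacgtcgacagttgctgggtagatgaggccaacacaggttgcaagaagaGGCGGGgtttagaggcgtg

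Genes of the interferon and antigen presentation axis were read beside the inducible subunits. Of 8 listed genes 7 were tested. At 48 h 2 fell (6.45% of all genes did) and 0 rose (5.08% of all genes did). At 24 h and 12 h limma called 0, with 1 lower at an unadjusted p under 0.05 each time, and edgeR called 1 lower at 24 h. TAP1, which carries peptides into the endoplasmic reticulum and lies beside PSMB8 and PSMB9 in the genome, was at 205 and 280 in E8, 174 at 12 h, 152 and 168 at 24 h, then 129 and 119 at 48 h. It fell at 48 h (-0.95 ± 0.21, limma adjusted p = 0.0053), and this call was lost without 48 h replicate 2 (adjusted p = 0.0569). TAPBP, which helps load peptides on MHC class I, was at 877 and 886 in E8, 619 at 12 h, 772 and 838 at 24 h, then 574 and 641 at 48 h. It also fell at 48 h (-0.54 ± 0.16, adjusted p = 0.0279), and the call was lost without either 48 h library (adjusted p = 0.248 and 0.0929). IRF1, STAT2, IRF9 and TAP2 passed in no comparison with E8.

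The constitutive catalytic subunits showed no called change. PSMB5, which cuts after hydrophobic residues, was at 2590 and 3722 in E8, 3531 at 12 h, 3895 and 3701 at 24 h, then 4090 and 3638 at 48 h. PSMB6, which cuts after acidic residues, was at 2367 and 3175, then 2922, then 3036 and 3007, then 3357 and 2916. PSMB7, which cuts after basic residues, was at 2395 and 2846, then 2838, then 2467 and 2611, then 3078 and 2487. For each of the 3, E8 replicate 1 was the lowest library and the 24 h and 48 h groups overlapped E8. Their log2 fold changes at 48 h were 0.31, 0.19 and 0.08 (limma adjusted p = 0.221, 0.465 and 0.773), and 95% intervals reached from -0.02 to 0.65 for PSMB5. Without E8 replicate 1, PSMB6 and PSMB7 changed sign, to -0.02 and -0.04, while without E8 replicate 2 PSMB5 and PSMB6 were called higher (0.57 and 0.40, adjusted p = 0.00142 and 0.0242).

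Over the 7 constitutive subunits of the beta ring, log2 fold changes at 48 h ran from 0.08 to 0.31, all positive and none called. In the alpha ring, which gates the core, they ran from -0.24 to 0.69 and none was called. The largest was that of PSMA6 (chromosome 14, 35278633 to 35317493, plus strand), with 56.8 and 81.8 in E8, 75.1 at 12 h, 76.0 and 92.6 at 24 h, then 99.3 and 123 at 48 h. Both 48 h libraries lay above both controls, and the change of 0.69 ± 0.26 did not pass (limma adjusted p = 0.0929). It passed without E8 replicate 2 (0.95, adjusted p = 0.0192) and with the GC trend removed together with the replicate block (0.77, adjusted p = 0.0434).

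PSMA6 also stood out by its low level, and annotation overlap moved with level. In GENCODE 29, 81.0% of its transcript lies in exons of AL121594.1, an annotated gene on the same strand. PSMA1 and PSMA2, named here after their values were seen, share 53.2% and 52.5% in the same way, PSMB10 45.3% and PSMD9 43.8%. For all other members the share was at most 0.071%. These 5 were all among the 10 members with the lowest level per kilobase. In the constitutive 20S core, whose subunits enter the particle in equal numbers, the 3 sharing members had 83.9 to 277 normalised reads per kilobase and the 11 others 657 to 5246, with a median of 2778. How the authors' counting treated reads in shared exons is not given in the sources used here, and its part in these levels was not tested.

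**Figure D4:**
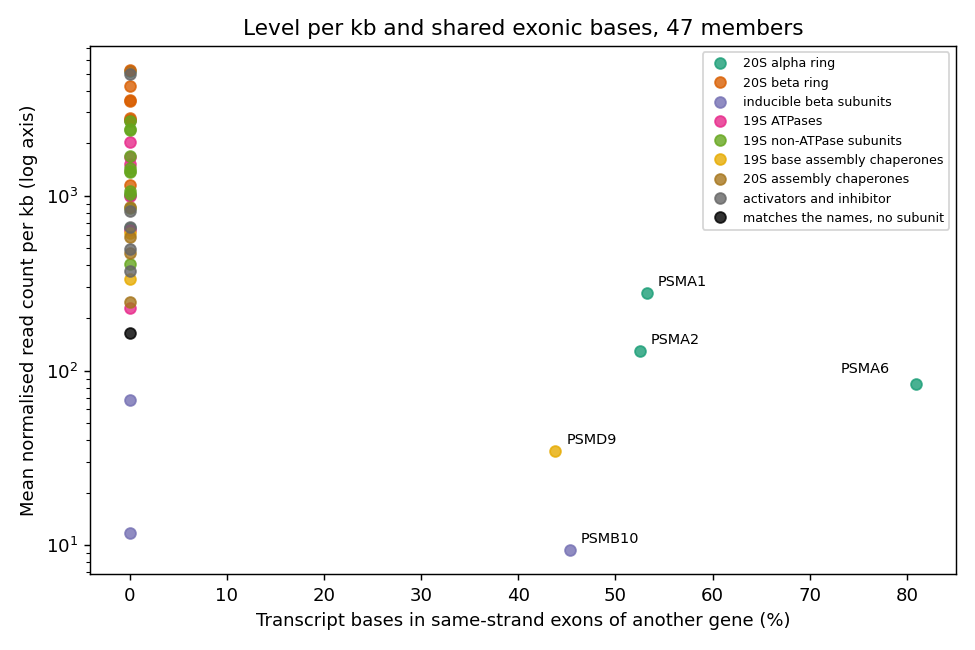
Mean normalised read count per kilobase of transcript over the 7 libraries (log axis) against the percent of transcript bases that lie in same-strand exons of another annotated gene, for the 47 members (points, coloured by role). The 5 named members share 43.8% or more and are among the 10 lowest.

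In the 19S particle, 1 of the 6 ATPases, the motors that unfold substrates, rose at 12 h. PSMC1 (chromosome 14, 90256495 to 90275429, plus strand) was at 748 and 957 in E8, 1326 at 12 h, 959 and 1002 at 24 h, then 1047 and 1081 at 48 h. The 12 h library was the highest of the 7 and every treated library lay above both E8 libraries. Its log2 fold change at 12 h was 0.65 ± 0.19 (limma adjusted p = 0.0445, 1 library against 2, which assumes that the lone library varies like the other groups). At 48 h it was 0.33 ± 0.16 (adjusted p = 0.186). The 12 h call was lost in a fit of only the 12 h and E8 libraries (adjusted p = 0.261), without E8 replicate 1 (0.47, adjusted p = 0.0623), and without any 1 of the 24 h or 48 h libraries (adjusted p from 0.0608 to 0.0748).

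PSMC1 overlaps NRDE2 on the opposite strand over 82.1% of its transcript, and the strand setting of the counting is not given, so their reads cannot be told apart here. NRDE2, a nuclear RNA decay factor, was listed at 302 and 262 in E8, 327 at 12 h, 314 and 295 at 24 h, then 392 and 324 at 48 h. The other 5 ATPases had log2 fold changes at 12 h that were positive and did not pass. Levels per kilobase of the 6 ATPases, which form 1 ring, ran from 229 to 2019 with a median of 1262, and PSMC1 was the lowest. The transcript length used was 4448 bases for PSMC1 and from 1579 to 3054 for the others. Before division by length PSMC1 was also the lowest, at a mean of 1017 over the 7 libraries, against 1941 to 3189 for the others. The part of the length in its level per kilobase was not tested. PSMD7 and PSMC5 also overlap genes on the opposite strand, over 50.4% and 27.2% of their transcripts.

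None of the 11 non-ATPase subunits, which bind ubiquitin or scaffold the lid and base, was called at any time in the main test. Their log2 fold changes ran from -0.21 to 0.37 at 48 h, from -0.24 to 0.38 at 24 h and from -0.08 to 0.41 at 12 h. PSMD4, a ubiquitin receptor with the largest value at 48 h, was at 2741 and 3386 in E8, 3640 at 12 h, 4019 and 3550 at 24 h, then 4164 and 3727 at 48 h. All treated libraries lay above both controls. Its change at 48 h of 0.37 ± 0.15 did not pass (limma adjusted p = 0.11), and it did pass with the GC trend removed (0.33, adjusted p = 0.0477) and without E8 replicate 2 (0.52, adjusted p = 0.00385). Over the 31 constitutive subunits of core and cap, limma called 0 at 48 h, 0 at 24 h and 1 at 12 h, and so did edgeR and DESeq2. Among all genes the shares that limma called higher and lower were 5.08% and 6.45% at 48 h. They were 8.66% and 7.56% at 24 h, then 2.56% and 4.89% at 12 h. An unadjusted limma p under 0.05 was reached by 4, 3 and 3 of the 31 subunits. The 95% interval lay within 2-fold for 30, 31 and 30 of them.

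In the main test, the 2 members called higher at 24 h were both assembly factors, when 8.66% of all genes were called higher. With the GC trend removed, 6 members were called higher at 24 h, and 10.7% of all genes. These 6 were PSMG4, PSMD9, PSMG1, PSMD2, PSMA1 and PSMF1, the last 3 not being assembly factors. PSMD9 (chromosome 12, 121888731 to 121918297, plus strand), a chaperone of the 19S base, was at 58.5 and 77.7 in E8, 109 at 12 h, 127 and 126 at 24 h, then 86.4 and 87.3 at 48 h. It was highest in the 24 h pair, and all treated libraries lay above both controls. The mean at 24 h was 1.86-fold higher (0.90 ± 0.24, limma adjusted p = 0.0151), while 0.36 ± 0.24 at 48 h did not pass (adjusted p = 0.365). The difference between 48 h and 24 h, -0.54, was not called either (adjusted p = 0.355). PSMD5 and PSMD10, the other base chaperones, were called at no time.

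PSMG4 (chromosome 6, 3231403 to 3303373, plus strand), which helps build the alpha ring, was at 502 and 661 in E8, 739 at 12 h, 905 and 829 at 24 h, then 667 and 764 at 48 h. All treated libraries exceeded both controls, with the 24 h pair highest. Its mean was 1.49-fold higher at 24 h (0.59 ± 0.17, limma adjusted p = 0.0218), and 0.31 ± 0.17 at 48 h did not pass (adjusted p = 0.253). PSMG1, PSMG2 and PSMG3, its partners in ring assembly, had log2 fold changes of 0.41, -0.29 and 0.34 at 24 h, none called in the main test. Both 24 h calls, of PSMD9 and PSMG4, were lost without E8 replicate 1 (0.70 and 0.39, adjusted p = 0.106 and 0.11), without 24 h replicate 1 (adjusted p = 0.0865 and 0.187) and without 24 h replicate 2 (adjusted p = 0.0631 and 0.0588).

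The activators and the inhibitor, which bind the ends of the core, lay near the control level at 48 h, with log2 fold changes from -0.18 to -0.01 and none called. PSME4, the activator PA200 and the largest of these, was at 4256 and 3240 in E8, 4085 at 12 h, 3035 and 3307 at 24 h, then 3379 and 3200 at 48 h. The 48 h libraries overlapped E8, 1 lying between the controls and the other below both. The change of -0.18 ± 0.15 did not pass (limma adjusted p = 0.493), turned to 0.02 without E8 replicate 1 and passed as -0.37 without E8 replicate 2 (adjusted p = 0.0336). At 12 h the summed level of the activators and the inhibitor was 1.19 times that of E8. Log2 fold changes at 12 h were positive for 4 of them and negative for 1. PSME3 was at 4973 and 4590 in E8 and was highest at 12 h, at 6323 (0.40 ± 0.17, not called in the main test). PSMC3IP, matched by name alone, was at 184 and 194 in E8, 317 at 12 h, 227 and 268 at 24 h, then 213 and 213 at 48 h. It was highest at 12 h (0.74 ± 0.23, adjusted p = 0.0543, which missed the threshold), and 54.4% of its transcript overlaps MLX on the opposite strand.

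Genes that work with the proteasome but carry other names were read next. Of 13 subunits and partners tested, 1 fell at 48 h (6.45% of all genes did), 1 rose at 24 h (8.66%) and 1 fell at 12 h (4.89%), so their share was near that of all genes. ADRM1, the ubiquitin receptor of the cap, was at 1470 and 2395 in E8, 2315 at 12 h, 2890 and 3078 at 24 h, then 2271 and 2417 at 48 h. It rose at 24 h (0.67 ± 0.18, limma adjusted p = 0.0135), with E8 replicate 1 far below replicate 2, and the call was lost without E8 replicate 1 (0.32, adjusted p = 0.125).

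KIAA0368, also named ECPAS, an adaptor that scaffolds the 26S particle, was at 5961 and 5266 in E8, 5554 at 12 h, 3894 and 4562 at 24 h, then 3971 and 3384 at 48 h. Its 24 h and 48 h libraries lay below both controls and the 12 h library between them. It fell at 48 h (-0.61 ± 0.15, limma adjusted p = 0.00877), a call lost without 48 h replicate 2 (-0.50, adjusted p = 0.148). AKIRIN2, which brings proteasomes into the nucleus, fell at 12 h (-0.64 ± 0.18, adjusted p = 0.0322) and was named after its values were seen; the call was lost in a fit of only the 12 h and E8 libraries (adjusted p = 0.256) and without any 1 of the 24 h or 48 h libraries (adjusted p from 0.0561 to 0.057).

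Of the ubiquitin genes, UBB, which encodes a string of ubiquitin copies, was at 3136 and 4807 in E8, 4598 at 12 h, 5902 and 5825 at 24 h, then 5458 and 6066 at 48 h. The 24 h and 48 h libraries lay above both controls. It rose at 24 h (0.59 ± 0.17, limma adjusted p = 0.0186) and at 48 h (0.57 ± 0.17, adjusted p = 0.0297), and both calls were lost without E8 replicate 1 (0.29 and 0.26, adjusted p = 0.163 and 0.23). The 24 h call was also lost without 24 h replicate 1 (limma adjusted p = 0.0779), and the 48 h call without either 48 h library (adjusted p = 0.0975 and 0.203). It was the 1 gene called of 6 ubiquitin and ubiquitin-activating genes at each of these times. Of all genes, 8.66% rose at 24 h and 5.08% at 48 h.

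The NFE2L1 route, the known inducer of subunit genes, and the shuttle factors were not called. NFE2L1 was at 3819 and 4744 in E8, 4867 at 12 h, 3856 and 4071 at 24 h, then 4779 and 3808 at 48 h, and the log2 fold change at 48 h was 0.00 (limma adjusted p = 0.992). All groups overlapped except for the 12 h library, which was the highest of the 7. Of the 5 genes of the route, which include the protease DDI2 and the deglycosylase NGLY1, 0 passed at any time by limma, edgeR or DESeq2, with 1 reaching an unadjusted p under 0.05 at 24 h, and all 5 had positive values at 12 h. Of 9 shuttle and unfoldase genes, including VCP and RAD23B, 0 passed by any of these tools, with 1 at an unadjusted limma p under 0.05 at 48 h, 0 at 24 h and 3 at 12 h.

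**Figure D5:**
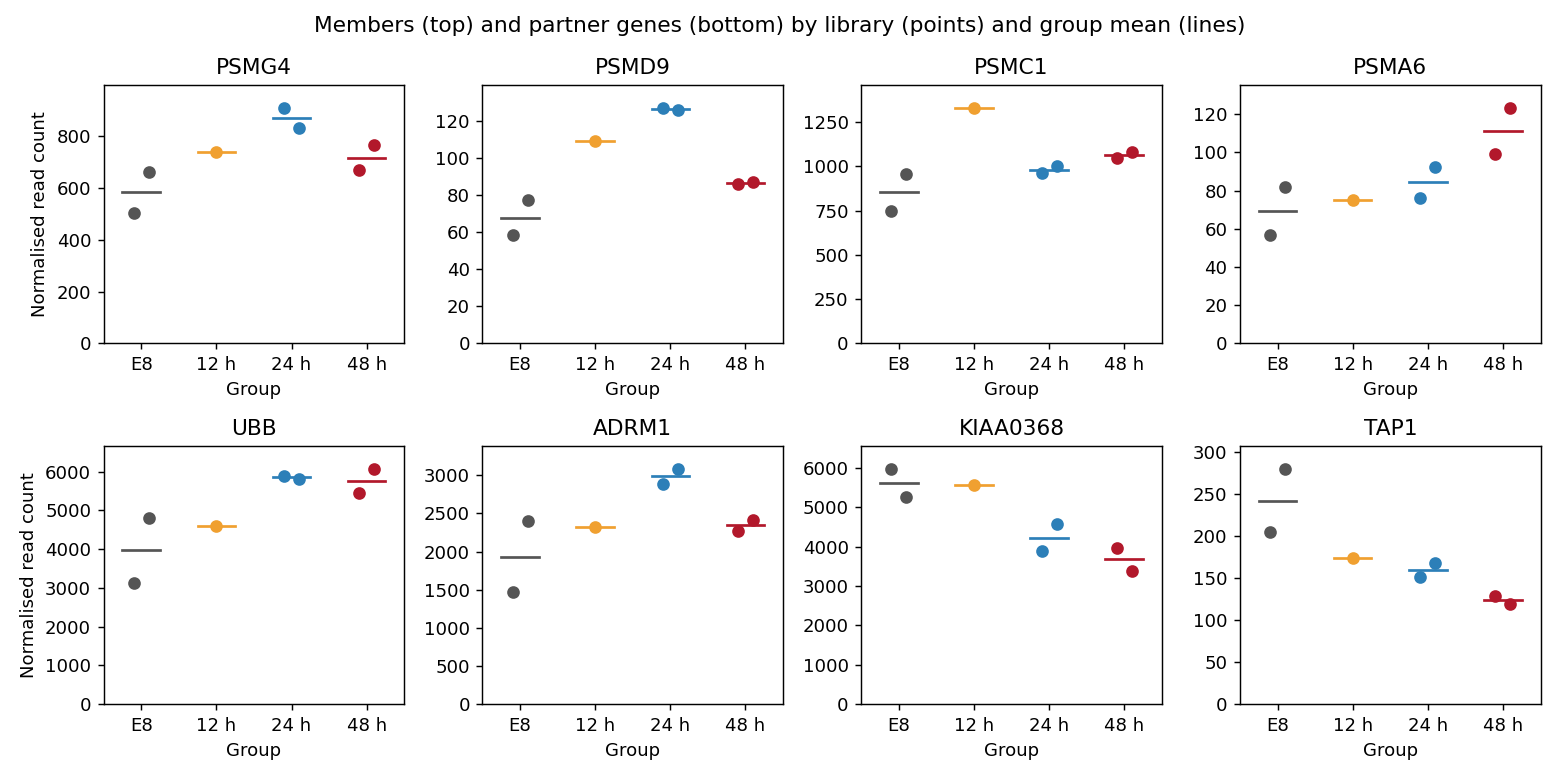
Normalised read count in each library (points) and group mean (lines) for 4 members (top) and 4 partner genes (bottom), for E8 and 12, 24 and 48 h of XMD892, each panel with its own axis from 0. PSMG4 and PSMD9 are highest at 24 h and PSMC1 at 12 h, while the 2 E8 libraries of UBB and ADRM1 stand far apart.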

How the data were processed

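Poly(A) RNA of 7 libraries was read in pairs on an Illumina NextSeq, per the labels' protocols. The submitters' processing notes name Trimmomatic 0.36, STAR, featureCounts 1.5.3, DESeq2 1.26.0 and hg38; annotation and strand setting are not given in the sources used here. The deposited signal is, from its values, a read count per gene that the authors scaled by 1 factor in each library; 100% of values were within 0.1 of a whole number of reads, and edgeR and DESeq2 were run on those. A further 2 columns match no sample and were not used.

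Genes with a mean of 10 or more (16351) were tested on log2(value + 1), the scale of all fold changes, which understates those of low genes. limma 3.58.1 (R 4.3.3) took all 7 libraries in 1 fit of the group means, with trended variance moderation (3 residual and 18.4 prior degrees of freedom). A call is an adjusted p under 0.05 (Benjamini-Hochberg, over every tested gene). Folds are ratios of group means. The script was tested on simulated data.

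Lengths, GC content and exon overlap come from GENCODE 29, promoters from RefSeq. Lengths and overlap refer to 1 principal transcript per gene, the longest where several ranked equal. The alternatives changed the pseudocount (0.5, 5), the filter (none, 50) or the test: TMM factors, edgeR 4.0.16, DESeq2 1.42.0, only the groups compared, the replicate number as a block, removal of the GC trend (loess, span 0.3), and each library left out. Named genes are the catalytic subunits, called members, the largest change at 48 h in each role, up to 3 called genes of each partner list, and NFE2L1. Members and lists were chosen with earlier results of these data known.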

Additional observations from a re-analysis of the deposited data

How the results depend on the processing

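The number of members called between 24 h and 48 h was 0 under every alternative run. At 48 h against E8 it was 1 under all others but 4 with the GC trend removed, 3 with that and the replicate block, and 0 to 12 when 1 library was left out. At 24 h it was 3, but 7 with the GC trend removed, 4 with that and the block, and 0 to 15 with 1 library left out. At 12 h it was 1, but 2 with a filter at a mean of 50, 2 with edgeR, 0 with only the groups compared, 3 with the GC trend removed, 2 with that and the block, and 0 to 9 with 1 library left out. With the GC trend removed, calls over all genes also rose, to 9.47% higher and 9.64% lower at 48 h, to 10.7% with 9.97% at 24 h, and to 6.64% with 8.68% at 12 h. The highest counts all came without E8 replicate 2 and the cause was not tested. At 48 h, leaving out 1 library moved the log2 fold change of PSMB6 between -0.0213 and 0.402, of PSMB7 between -0.0697 and 0.237 and of PSME4 between -0.372 and 0.0215, so each changed sign without E8 replicate 1, and PSMB7 also without 48 h replicate 1.

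No pattern shared by replicate number was seen: the correlations of same-numbered deviations were -0.04, -0.05 and -0.07. They cannot settle whether the samples are paired, because the E8 pair differed along GC content. The replicate block left the counts at 1, 3, 1 and 0 and ended the call of AKIRIN2 at 12 h (-0.60, limma adjusted p = 0.0976). Pseudocounts, the absence of a filter and TMM factors changed no count of members. Summed levels kept their direction under TMM factors and with the GC trend removed. PSMB9 and PSMB10, with few reads, are limited by depth.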
